A study of Homo sapiens with 4 samples.

Results

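The clustered protocadherin genes were taken as the protein-coding genes of chromosome 5 whose symbol begins with PCDHA, PCDHB or PCDHG and that lie between 140.7 and 141.6 Mb of hg38. This gave 53 genes of 19974 protein-coding genes on chromosomes 1 to 22 and X. They form 3 clusters, of 15 alpha, 16 beta and 22 gamma genes. Peaks of H2AK119ub, histone H2A with a single ubiquitin on a lysine of its tail, with at least 1 bp inside a cluster were counted once each. There were 23 of them among 32791 wild-type peaks and 26 among 34390 knockdown peaks.

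The study used chromatin immunoprecipitation sequencing, with 4 samples of H1, an established line of human embryonic stem cells, cultured in mTESR1. The wild-type cells are labelled untreated, and the other cells are labelled with a YTHDF1 shRNA, a hairpin RNA that lowers the messenger RNA it matches. The YTHDF1 protein reads m6A, a methylation of adenosine in RNA, in the cytoplasm. Each group had 1 H2AK119ub library and 1 input library, and the inputs were not analysed here. The labels name no control hairpin for the wild-type cells and do not say whether the knockdown cells were 1 clone. Peak lists measure no RNA, so neither the knockdown nor the identity of the cells could be checked. With 1 library per group no difference could be set against a replicate spread, none was tested, and the values of both lists are given side by side. The depth is unknown, as neither list gives read counts, and a peak in 1 list alone can be a region that narrowly missed the call in the other.

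Clustered protocadherins are cell-surface adhesion proteins of the cadherin family, best known in neurons, where each cell displays its own combination of them. In the alpha and gamma clusters every gene has its own promoter and a large variable exon, which is spliced to constant exons shared by the whole cluster, while beta genes each stand alone. Most members are switched on in a random choice that involves CTCF, cohesin and DNA methylation of the promoters. The last genes of the alpha and gamma clusters, called C-type, are expressed without that random choice. H2AK119ub is laid down by Polycomb repressive complex 1 (PRC1) and is known from silent developmental genes of stem cells.

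Promoter sequences are shown first, because members whose promoters share a stretch of letters differed from each other in the mark. The promoters also differ in their CG pairs, which are counted at the end. A promoter window of 300 bases, from 250 before to 50 after the annotated start (RefSeq, GRCh38.p14), was found for 47 of the 53 members. PCDHA3, PCDHA13, PCDHB6, PCDHB11, PCDHGA12 and PCDHGC5 had no entry. The window of PCDHGB2 lies at an inner start, and the other 46 lie at the outermost one. The letters CGCT, the core of an element known from these promoters, stood on the strand of the gene in 46 of 47 windows and in 65.0% of 15812 windows of protein-coding genes. On either strand the shares were 97.9% and 81.0%. In 43 of the 47 windows (91.5%) a CGCT began between 100 and 30 bases before the start, against 27.1% of all protein-coding windows. The longer stretches described next contain CGCT and were picked after the sequences were seen.

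In the alpha cluster 9 of 13 windows held GATGTCGCT, and over all 15812 windows 22 did (0.139%) on either strand. The stretch began 43 to 86 bases before the start. It is shown in capitals below, 5' to 3' on the + strand (as are all sequences here), in the 120 bases before the start of a gene without a peak in either list (PCDHA1, chr5:140786020-140786139), 1 with a peak in both (PCDHA6, chr5:140827840-140827959) and 1 with a peak in the knockdown list alone (PCDHA12, chr5:140875188-140875307). PCDHA9 (chr5:140848262-140848381), without a peak in either list, was the member whose window lacked CGCT on both strands, so its sequence has no capitals. It did match GATGTCNCT, as 10 of 13 alpha windows and 102 of all windows (0.645%) did.
PCDHA1: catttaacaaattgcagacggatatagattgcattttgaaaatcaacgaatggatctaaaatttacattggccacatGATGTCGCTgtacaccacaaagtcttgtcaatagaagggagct
PCDHA6: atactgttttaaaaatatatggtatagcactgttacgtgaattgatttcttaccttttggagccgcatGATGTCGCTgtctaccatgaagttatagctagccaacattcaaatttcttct
PCDHA12: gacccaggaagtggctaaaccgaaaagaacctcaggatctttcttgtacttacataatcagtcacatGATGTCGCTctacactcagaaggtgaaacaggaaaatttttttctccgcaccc
PCDHA9: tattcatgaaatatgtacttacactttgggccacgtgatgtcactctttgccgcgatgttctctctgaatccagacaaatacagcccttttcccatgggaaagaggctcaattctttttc
Of the 9 genes with GATGTCGCT, 7 had a peak within 1 kb of the start in neither list, as did 10 of the 13 alpha genes other than C-type and 29.1% of all protein-coding genes.

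In the beta cluster 13 of 14 windows held GGTGGCGCT, and over all windows 104 did (0.658%) on either strand. PCDHB1, the first beta gene, was the exception. The stretch is shown in capitals for genes with a peak in both lists (PCDHB2, chr5:141094495-141094614), in neither (PCDHB7, chr5:141172524-141172643), in the wild-type list alone (PCDHB14, chr5:141223223-141223342) and in the knockdown list alone (PCDHB15, chr5:141245275-141245394).
PCDHB2: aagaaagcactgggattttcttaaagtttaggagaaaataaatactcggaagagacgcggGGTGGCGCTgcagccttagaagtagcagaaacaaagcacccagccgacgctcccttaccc
PCDHB7: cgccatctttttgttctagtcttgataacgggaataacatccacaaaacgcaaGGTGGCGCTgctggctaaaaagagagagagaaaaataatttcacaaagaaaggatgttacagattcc
PCDHB14: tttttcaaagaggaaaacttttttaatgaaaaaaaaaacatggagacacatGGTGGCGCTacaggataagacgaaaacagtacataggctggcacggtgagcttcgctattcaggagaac
PCDHB15: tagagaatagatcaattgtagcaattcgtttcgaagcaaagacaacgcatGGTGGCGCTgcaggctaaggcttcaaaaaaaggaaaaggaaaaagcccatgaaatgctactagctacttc
All 4 patterns of marking occurred among the 13 beta genes that carry these letters, with 3 genes marked in both lists and 7 in neither, beside 4 and 9 of the 16 beta genes.

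In the gamma cluster 5 of 20 windows, all of A-type genes, held CGCTGTTCA, and over all windows 20 did (0.126%) on either strand. The letters are shown in capitals for PCDHGA1 (chr5:141330394-141330513), marked in neither list, PCDHGA8 (chr5:141392513-141392632), marked in the wild type alone, and PCDHGA10 (chr5:141412867-141412986), marked in both.
PCDHGA1: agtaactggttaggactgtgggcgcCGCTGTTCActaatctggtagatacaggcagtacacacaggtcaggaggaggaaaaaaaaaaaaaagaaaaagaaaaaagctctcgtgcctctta
PCDHGA8: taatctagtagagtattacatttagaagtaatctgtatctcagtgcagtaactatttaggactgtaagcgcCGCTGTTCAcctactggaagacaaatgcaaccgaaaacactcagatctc
PCDHGA10: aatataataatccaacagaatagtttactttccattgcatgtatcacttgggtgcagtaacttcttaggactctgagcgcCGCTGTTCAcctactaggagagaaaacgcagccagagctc
The match describes letters in these windows and shows neither binding nor use of the promoter.

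The mark was unevenly spread over the 3 clusters. In both lists the gamma cluster had the largest covered share, and the beta cluster had the smallest, though it was nearly level with the alpha cluster in the knockdown list. Covered length counts the bases that peaks overlie, here between the first start and the last end of the members of a cluster. The gamma cluster (chr5:141330514-141512975) had 77.4 of 182 kb (42.4%) in wild-type peaks and 70.8 kb (38.8%) in knockdown peaks. The alpha cluster (chr5:140786140-141012347) had 38 of 226 kb (16.8%) in wild-type cells and 21.8 kb (9.64%) in the knockdown. The beta cluster (chr5:141051374-141249365) had 10.2 of 198 kb (5.15%) in wild-type cells and 18.2 kb (9.19%) in the knockdown. So the covered length was shorter in the knockdown list for alpha (by 16.2 kb) and gamma (by 6.6 kb), and longer for beta (by 8 kb).

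In percent of the wild-type length, these differences were -42.6% for alpha, -8.53% for gamma and 78.4% for beta, beside -9.56% for chromosome 5 and -13.7% for all chromosomes. The beta difference rested on peaks of low score. With the upper 50% of each list by score, the score being the authors' deposited value per peak, the beta lengths were 4 and 4.4 kb, the alpha lengths 21.8 and 10.2 kb and the gamma lengths 68.8 and 51.0 kb. The gamma difference then came to -17.8 kb. It was -12 kb with lists of equal length and -14.2 kb without peaks under 2 kb. No length over chromosome 5 or all chromosomes is given at these settings. A shift of the clusters thus cannot be told apart there from one of the whole lists.

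**Figure D1:**
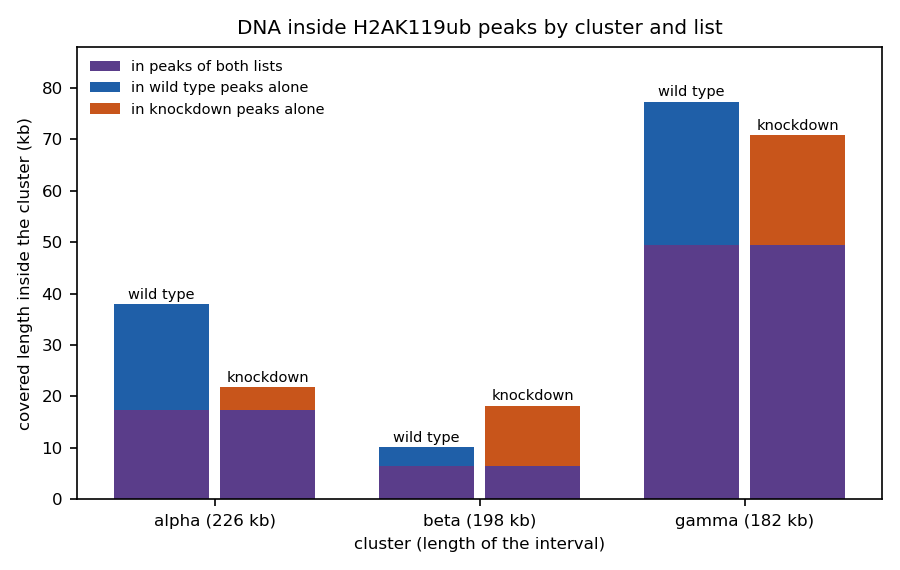
Covered length in kb (vertical axis) inside each cluster for the wild-type and the knockdown peak list; purple marks bases in peaks of both lists, blue and orange bases in peaks of 1 list alone. The wild-type bar is the taller one for alpha (38 against 21.8 kb) and gamma (77.4 against 70.8 kb), and the knockdown bar for beta (18.2 against 10.2 kb).

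The bases in common were 17.4 kb in the alpha, 6.4 kb in the beta and 49.4 kb in the gamma cluster. They made up 45.8% of the wild-type and 79.8% of the knockdown length in alpha, 62.7% and 35.2% in beta, and 63.8% and 69.8% in gamma. Over all chromosomes the shares were 61.2% and 71.0%. The alpha knockdown peaks thus lay mostly inside wild-type peaks, while most of the beta knockdown length lay outside them. The HOX clusters, whose products pattern the body axis and which are known Polycomb targets, looked different. The HOXA, HOXC and HOXD intervals were covered to 100% in both lists, and HOXB to 81.5% and 82.3%.

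The mark was also unevenly spread within each cluster. Each cluster was cut into 4 sections of equal length. The last alpha section, which holds the start of PCDHAC2 and the alpha constant region as the gene table lists it, was covered to 38.2% in wild-type cells and 17.7% in the knockdown, and the other alpha sections to between 7.78% and 10.6% in wild-type cells and between 4.24% and 11.7% in the knockdown. In the gamma cluster the second section, with 9 starts including that of PCDHGB7, was covered to 65.8% and 47.2%. The last gamma section, with the 3 C-type starts, was covered to 64.8% and 55.6%, the first, also with 9 starts, to 16.1% and 21.9%, and the third, with 1 start, to 22.9% and 30.4%. The most covered gamma section was thus the second in the wild-type list and the last in the knockdown list. In the beta cluster the first section was covered to 9.44% in both lists. The second, with 3 starts, had 5.92% in wild-type cells and 16.8% in the knockdown, the highest share and the largest difference of the cluster. The third, with 6 starts, had no wild-type peak and 7.68% in the knockdown, and the last had 5.25% and 2.83%.

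**Figure D2:**
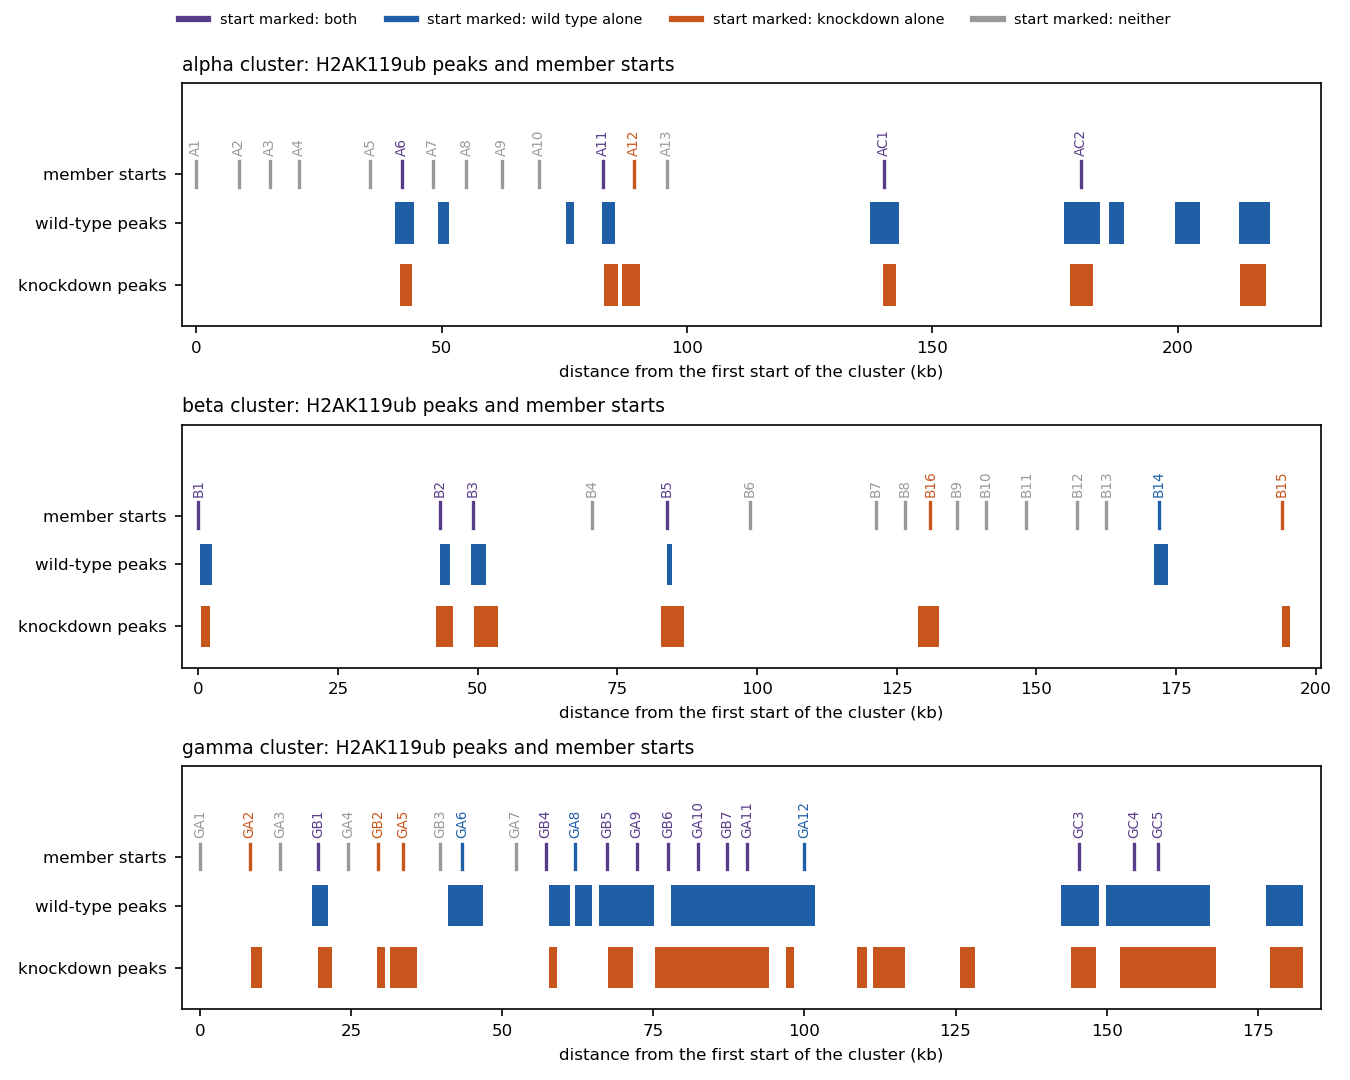
Peaks of the wild-type list (blue bars) and knockdown list (orange bars) along the alpha, beta and gamma clusters, against the distance from the first start in kb; ticks above are member starts without the letters PCDH, coloured by the lists that mark them. The gamma cluster carries the widest peaks in both lists, and the first alpha starts, A1 to A5, have no peak within 1 kb.

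Members with a peak no farther than 1 kb from the annotated start are called marked. Of the 53 members, 23 were marked in wild-type cells (43.4%) and 25 in the knockdown (47.2%), against 65.4% and 65.6% of 15818 protein-coding genes. Both lists marked 19 members, and neither marked 24 (background 60.1% and 29.1%). Of the others, 4 had a peak in the wild-type list alone and 6 in the knockdown list alone, where 5.25% and 5.46% of all genes were marked in that way. Several members share a peak, so these counts are not counts of separate peaks. The 23 wild-type members lay at 17 peaks and the 25 knockdown members at 20 peaks. By cluster, the wild type marked 4 of 15 alpha, 5 of 16 beta and 14 of 22 gamma genes, and the knockdown 5, 6 and 14. Among the gamma genes, 5 of 7 B-type and 6 of 12 A-type genes were marked in wild-type cells, and 6 and 5 in the knockdown.

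Of the ZNF genes of chromosome 19, another family of tandem copies, 111 of 219 (50.7%) were marked in wild-type cells and 117 (53.4%) in the knockdown. No test of these shares was made. The members are similar copies of each other, and the sources used here do not give how reads that match several copies were treated. Its part in these shares was not tested.

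The C-type genes were marked without exception. All 5 had a peak at the start in both lists, as did 60.1% of all protein-coding genes. These peaks stood high in their own lists, at score ranks from 87.2 to 98.5 on a scale on which 100 is the highest score. High ranks were not limited to C-type genes. The wide peaks near the starts of PCDHGB6, PCDHGA10, PCDHGB7 and PCDHGA11 had rank 92.1 among wild-type peaks and 93.0 among knockdown peaks. Each of these ranks was above those of the PCDHAC1 and PCDHAC2 peaks of the same list. PCDHAC1 lay in a wild-type peak of 6 kb (chr5:140923401-140929400) and a knockdown peak of 2.8 kb (chr5:140926001-140928800). PCDHAC2 lay in peaks of 7.2 kb (chr5:140963001-140970200) and 4.6 kb (chr5:140964201-140968800). The peak around the start was narrower in the knockdown list at both genes.

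PCDHGC3 lay in peaks of 6.2 kb (chr5:141473001-141479200) and 4.2 kb (chr5:141474601-141478800). PCDHGC4 and PCDHGC5 shared 1 peak in each list, of 17.2 kb in wild-type cells (chr5:141480401-141497600) and 15.8 kb in the knockdown (chr5:141482801-141498600). This was the highest-scored peak of the clusters in both lists. Its score was the ceiling of 1000 in the wild-type list and 236 in the knockdown list, at ranks 98.5 and 97.5. The ceiling is shared by 997 wild-type and 643 knockdown peaks, and the highest scores below it were 310 and 309. Whether scores of both lists share a scale is unknown, so 1000 and 236 cannot be read as a fall. In the upper 50% of peaks by score, all 5 C-type genes were still marked in both lists, while the members as a whole numbered 17 in wild-type cells and 14 in the knockdown. The background was then 49.1% and 49.0%. Both lists marked 11 members there, among them PCDHGB6, PCDHGA10, PCDHGB7 and PCDHGA11. A further 6 were marked in the wild type only and 3 in the knockdown only, the reverse of the order with all peaks. Over all 15818 protein-coding genes, 7765 were marked in the wild type, 7758 in the knockdown and 6636 in both. The numbers in 1 list alone were thus nearly equal over all genes.

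Of the 13 alpha genes other than C-type, 2 were marked in wild-type cells and 3 in the knockdown. PCDHA6 lay in peaks of 3.8 kb (score 14.1) and 2.4 kb (score 14.2). PCDHA11 lay at peaks of 2.6 and 2.8 kb, the knockdown one beginning 0.244 kb after the start. PCDHA12 was marked in the knockdown alone, by a peak of 3.8 kb with a score of 5.74 (chr5:140872801-140876600), and the nearest wild-type peak ended 3.91 kb before its start. PCDHA7 was marked in neither list, although a wild-type peak of 2.2 kb began 1.13 kb after its start. The other 9 genes, PCDHA1 to PCDHA5, PCDHA8 to PCDHA10 and PCDHA13, had no peak within 1 kb of the start in either list. The genes at the front of the cluster were the farthest from a peak, with 40.5 kb in wild-type cells and 41.5 kb in the knockdown for PCDHA1.

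Of the beta genes, PCDHB1, PCDHB2, PCDHB3 and PCDHB5 were marked in both lists. The PCDHB1 peaks measured 2.2 and 1.6 kb, and the knockdown one had a score of 2.66, at rank 1.53 of its list. The PCDHB2 peaks measured 1.8 and 3 kb, those of PCDHB3 2.6 and 4.2 kb, and those of PCDHB5 1 and 4.2 kb. At these last 3 genes the knockdown peak was the wider one. PCDHB14 was marked in the wild type alone, by a peak of 2.6 kb with a score of 6.11 (chr5:141222401-141225000).

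PCDHB16 and PCDHB15 were marked in the knockdown alone. The peak at PCDHB16 measured 3.8 kb with a score of 6.95 (chr5:141180201-141184000). It also covered the end of PCDHB8, whose start lay 2.41 kb before it. The peak at PCDHB15 measured 1.4 kb with a score of 17.3 (chr5:141245401-141246800) and began 0.006 kb after the start. The other 9 beta genes, among them the neighbours PCDHB9 to PCDHB13, were marked in neither list.

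Of the gamma genes other than C-type, 8 were marked in both lists, 3 in each list alone and 5 in neither. PCDHGA2, PCDHGB2 and PCDHGA5 were marked in the knockdown alone, by peaks of 1.8 kb (score 14.2), 1.4 kb (5.90) and 4.4 kb (15.6). PCDHGA6, PCDHGA8 and PCDHGA12 had a peak at the start in the wild type only. The PCDHGA6 peak measured 5.8 kb with a score of 5.23 (chr5:141371601-141377400) and the PCDHGA8 peak 2.8 kb with a score of 16.1 (chr5:141392601-141395400). PCDHGB1 was marked in both lists, by peaks of 2.8 and 2.4 kb. PCDHGA1, PCDHGA3, PCDHGA4, PCDHGB3 and PCDHGA7 were marked in neither.

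Farther along, a run of neighbouring gamma genes lay in wide peaks in both lists. The widest wild-type peak of the clusters measured 23.8 kb (chr5:141408401-141432200, score 128) and came within 1 kb of the starts of PCDHGB6, PCDHGA10, PCDHGB7, PCDHGA11 and PCDHGA12. It met 2 knockdown peaks. One of 18.8 kb (chr5:141405801-141424600, score 97.6) reached from before PCDHGB6 to beyond the start of PCDHGA11, and one of 1.4 kb (chr5:141427401-141428800) lay over the pseudogene PCDHGB8P. The latter ended 1.71 kb before the start of PCDHGA12, beyond the window of 1 kb. PCDHGB5 and PCDHGA9 shared a wild-type peak of 9 kb and a knockdown peak of 4.2 kb. PCDHGB4 lay near peaks of 3.6 kb (score 76.3) and 1.4 kb (score 14.4), which began at the same base.

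The covered length of the first 5 kb from the start of each gene was then measured, so that 5 kb is a filled window. Where starts lie close together, a window can reach the peak of the next gene, so a peak can count for several genes. The mean over the 53 members was 1.55 kb in wild-type cells and 1.49 kb in the knockdown, against 2.09 and 1.92 kb over all protein-coding genes. The window was empty for 27 members in wild-type cells and 26 in the knockdown, while 33.7% and 33.1% of all protein-coding genes had empty windows. By cluster the means were 0.928 and 0.808 kb for alpha, 0.560 and 1.06 kb for beta, and 2.69 and 2.26 kb for gamma. For 14 members the length was longer in the knockdown, for 16 shorter and for 23 equal, and the median difference was 0 kb, as it was over all protein-coding genes.

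A length at least 1 kb shorter in the knockdown was found in 9 members (background 19.4%) and one at least 1 kb longer in 10 members (background 12.3%). The longer ones were 5 of 16 beta, 3 of 22 gamma and 2 of 15 alpha genes, and the shorter ones 6 gamma, 2 alpha and 1 beta gene. In the alpha cluster PCDHAC2 had the longest wild-type length, 3.73 kb against 2.33 kb in the knockdown. PCDHA11 had the longest in the knockdown, 3.96 kb against 2.44 kb in the wild type, the largest gain of the cluster. Its own knockdown peak measured 2.8 kb, and the rest came from the peak at PCDHA12, into which its window ran. That peak also gave PCDHA12 its gain of 1.29 kb. PCDHA7 had the largest loss, with 2.2 kb in wild-type cells and 0 kb in the knockdown. PCDHAC1 had 3.10 kb in wild-type cells and 2.50 kb in the knockdown.

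In the beta cluster PCDHB3 had the longest length in both lists, 2.33 kb in wild-type cells and 4.2 kb in the knockdown. PCDHB8 had the largest gain, from an empty window to 2.59 kb, through the peak at PCDHB16, since its window runs beyond its own end. PCDHB5 had 0.995 kb in wild-type cells and 3.20 kb in the knockdown, and PCDHB14 had the largest loss, from 1.66 kb to an empty window. In the gamma cluster the windows of PCDHGA10, PCDHGB7, PCDHGC4 and PCDHGC5 were filled in both lists, so they could show no difference. PCDHGB5 and PCDHGA11 were filled in the wild type alone, with 4.2 and 3.55 kb in the knockdown, and PCDHGB6 in the knockdown alone, with 4.62 kb in the wild type. PCDHGB2 had the largest gain, from an empty window to 4.2 kb. Its knockdown window also took in part of the peak at PCDHGA5, while its own peak measured 1.4 kb. PCDHGA8 had the largest loss, from 3.8 kb to an empty window. Its wild-type window also took in part of the peak shared by PCDHGB5 and PCDHGA9, while its own peak measured 2.8 kb. PCDHGC3 had 3.8 kb in wild-type cells and 2.84 kb in the knockdown.

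**Figure D3:**
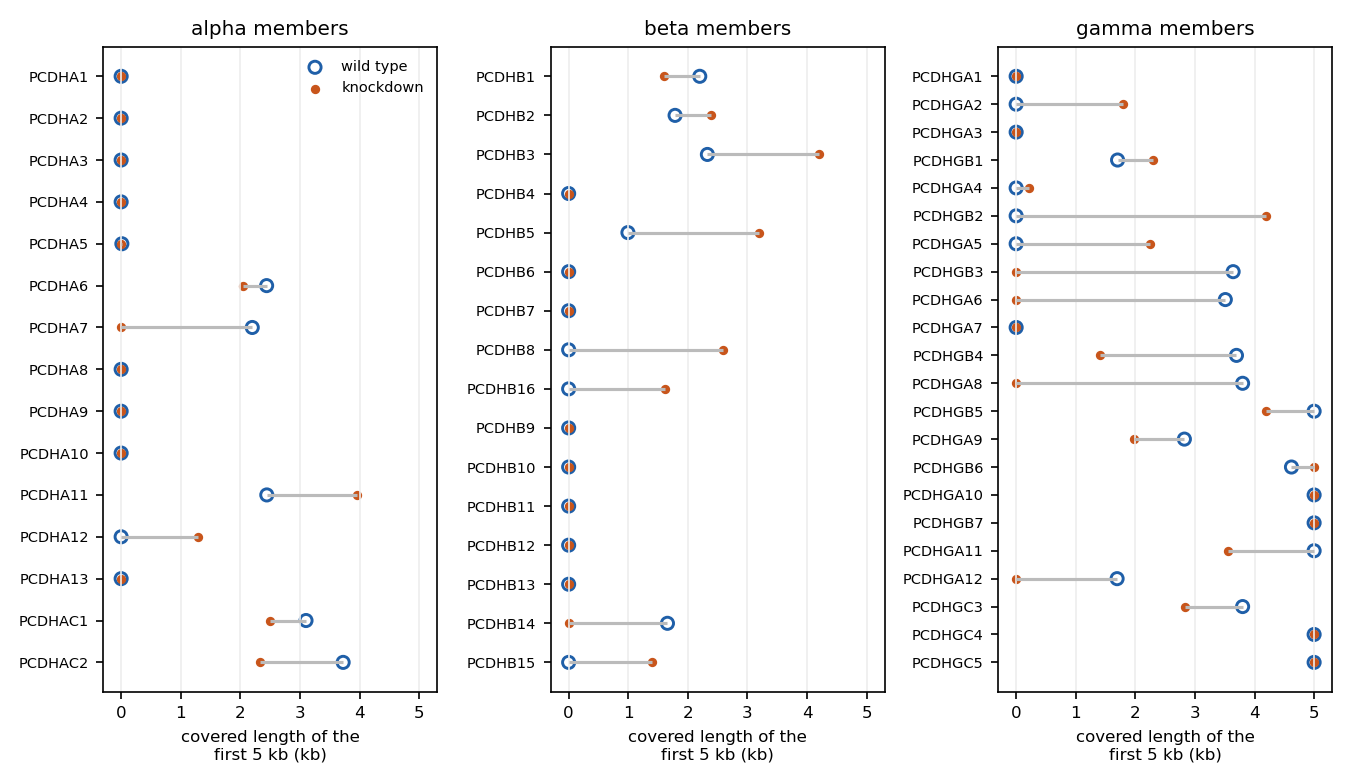
Covered length of the first 5 kb from the start (horizontal axis, kb) for each member in the order of the clusters; open blue circles are the wild-type list and filled orange points the knockdown list, joined by a grey line. Many alpha and beta genes sit at or near 0 kb in both lists, and PCDHGA10, PCDHGB7, PCDHGC4 and PCDHGC5 sit at 5 kb in both.

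Among the peaks of the clusters, 16 of 23 wild-type peaks (69.6%) touched a knockdown peak, and 17 of 26 knockdown peaks (65.4%) touched a wild-type peak, beside 71.4% and 74.1% of all peaks. The unshared peaks had the lower scores, with medians of 6.11 against 31.5 in wild-type cells and 6.95 against 18.9 in the knockdown. With an overlap of 50% or more required of each peak in a match, 11 peaks of each list were shared. Peaks of the clusters that touched only each other made 15 pairs. The knockdown peak was narrower in 10 and wider in 5 of them, beside 59.8% narrower among 16990 such pairs on all chromosomes. The median ratio of widths was 0.844 in the clusters and 0.889 overall. The 3 highest ratios belonged to the beta genes PCDHB5 (4.2), PCDHB2 (1.67) and PCDHB3 (1.62), and the lowest to PCDHGB4 (0.389), PCDHAC1 (0.467) and the pair at PCDHGB5 and PCDHGA9 (0.467).

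**Figure D4:**
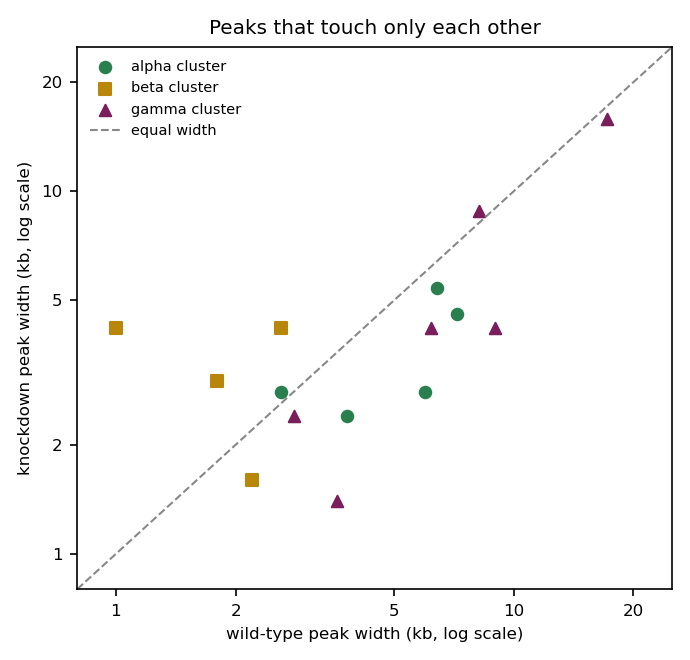
Width of the knockdown peak against width of the wild-type peak (both in kb, log scales) for the 15 pairs of cluster peaks that touch only each other; symbols give the cluster and the dashed line equal width. Of the 4 beta pairs (squares) 3 lie above the line, and 10 of the 15 pairs lie below it.

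Not all peaks lay at starts. Of the 23 wild-type peaks of the clusters 6 had no member start within 1 kb, as had 6 of the 26 knockdown peaks. The share of all peaks that lie away from a start was not counted. These numbers thus do not set the clusters apart from other regions. In the alpha cluster, wild-type peaks of 5 kb (chr5:140985601-140990600) and 6.4 kb (chr5:140998601-141005000) lay in the constant region (chr5:140978949-141012344), where the knockdown list held the second alone, at 5.4 kb. The covered length there was 11.4 kb in wild-type cells and 5.4 kb in the knockdown. The 5 kb wild-type peak had a low score, 4.67, at rank 8.27 of its list. A wild-type peak of 3 kb between it and PCDHAC2, without a knockdown peak, had a score of 2.60 at rank 1.36. A wild-type peak of 1.8 kb lay over the alpha pseudogene PCDHA14, where the knockdown list held none. In the gamma cluster a peak of 8.2 kb in wild-type cells and 8.8 kb in the knockdown lay over the shared end of all gamma genes. Knockdown peaks of 1.6 and 5.4 kb lay at the pseudogene PCDHGB9P, without a wild-type peak there. Their scores were low, 6.37 and 2.38, at ranks 16.3 and 0.858.

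Between alpha and beta no peak was found in either list over 39.0 kb. Between beta and gamma, over 81.1 kb, there were 2 wild-type and 3 knockdown peaks, covering 12.6 and 10 kb. That stretch holds TAF7, which encodes a subunit of the general transcription factor TFIID. The first 5 kb of TAF7 were filled in wild-type cells and covered for 3.18 kb in the knockdown. Of 15 protein-coding genes between or within 150 kb of the clusters, 14 had an annotated start, and SLC25A2 had none. Of these 14, 10 were marked in wild-type cells (background 65.4%) and 11 in the knockdown (background 65.6%). NDUFA2, a subunit of respiratory complex I, and IK had a peak at the start in the wild type only. HARS1 and HARS2, the histidyl-tRNA synthetases, and ZMAT2 had one in the knockdown only. The starts of NDUFA2 and IK lie close together on opposite strands (chr5:140647630 and 140647829), as do those of HARS1 and HARS2 (140691370 and 140691455). The windows of 1 kb overlap within each pair, so these genes are not separate cases. Over all protein-coding genes 5.25% were marked in the wild type only and 5.46% in the knockdown only.

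The protocadherins of the delta group are single genes scattered over the genome. Of the 8 with an annotated start, 6 were marked in wild-type cells (background 65.4%) and 7 in the knockdown (background 65.6%). The mean covered length of their first 5 kb was 3.23 and 3.58 kb, beside 2.09 and 1.92 kb over all protein-coding genes. PCDH1, PCDH17 and PCDH19 had filled windows in both lists. PCDH8 had 4.44 kb in wild-type cells and 5 kb in the knockdown, PCDH7 4.23 and 4.43 kb, and PCDH9 2.14 and 2.34 kb. PCDH18 was marked in the knockdown alone, with 1.89 kb, and PCDH11X in neither list. None of the 8 had a shorter length in the knockdown, beside 5547 of all 15818 protein-coding genes. PCDH18 and PCDH11X had empty windows in the wild type, so they could not be shorter. The filled windows of PCDH1, PCDH17 and PCDH19 would not show a shortening beyond the first 5 kb.

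Of 13 listed genes for factors known to act on the clusters, 12 had an annotated start, and RAD21 had none. Of these 12, 10 were marked in both lists (background 60.1%), and SMC1A and STAG2, which encode cohesin subunits, in neither. The mean covered length was 2.47 kb in wild-type cells and 1.82 kb in the knockdown, shorter in 7 and longer in 3 genes. Over all 15818 protein-coding genes it was shorter in 5547 and longer in 3868, with means of 2.09 and 1.92 kb. CTCF, whose product binds many clustered protocadherin promoters, had 4.88 and 3.88 kb. SMCHD1, a chromatin protein that keeps protocadherin genes silent, had 2.88 and 1.68 kb. WIZ, a zinc finger protein, had the largest difference, 4.36 against 1.56 kb, and DNMT3B, a DNA methyltransferase, had 4.02 against 4.62 kb.

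Finally the CG pairs of the promoter windows were counted, since CG-rich DNA is known to recruit PRC1. The 47 members had a median of 7 CG pairs (range 2 to 27), against a median of 22 over all protein-coding windows. The median was 11.5 for the 18 members marked in both lists, 6 for the 9 marked in 1 list alone and 5.5 for the 20 marked in neither. Some of the marked members share a peak, so they are not separate cases. The 4 C-type genes with a window had a median of 20.5. Without them the medians were 9 for members marked in both lists and 5.5 for those marked in neither, and the ranges, 5 to 16 and 2 to 12, overlapped. Over all protein-coding windows the medians were 27 for genes marked in both lists and 5 for genes marked in neither.

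Members were then set beside all genes with a like number of CG pairs, with few members in each class and no test. With 5 to 9 pairs, 10 of 27 members (37.0%) were marked in wild-type cells and 12 (44.4%) in the knockdown, against 46.9% and 44.3% of 1674 genes. With 10 to 14 pairs, 6 (66.7%) and 7 (77.8%) of 9 members were marked, against 59.2% and 60.3% of 1195 genes. All 5 members with 15 or more pairs were marked in both lists (81.0% and 81.8% of 10324 genes), and none of the 6 with up to 4 (18.6% and 17.9% of 2619 genes). Those 5 were the 4 C-type genes with a window and PCDHGB6, which shares the wide gamma peaks with its neighbours. The 250 bases before the start are shown with each CG in capitals for PCDHAC1 (chr5:140926049-140926298) and PCDHGC4 (chr5:141484780-141485029), marked in both lists with 27 and 23 pairs in the whole window, and for PCDHGA4 (chr5:141354771-141355020), marked in neither with 2.
PCDHAC1: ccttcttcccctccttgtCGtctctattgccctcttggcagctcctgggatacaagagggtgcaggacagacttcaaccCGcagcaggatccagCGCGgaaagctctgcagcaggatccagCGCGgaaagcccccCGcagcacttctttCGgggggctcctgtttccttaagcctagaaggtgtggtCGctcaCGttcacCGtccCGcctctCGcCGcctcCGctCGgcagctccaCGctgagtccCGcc
PCDHGC4: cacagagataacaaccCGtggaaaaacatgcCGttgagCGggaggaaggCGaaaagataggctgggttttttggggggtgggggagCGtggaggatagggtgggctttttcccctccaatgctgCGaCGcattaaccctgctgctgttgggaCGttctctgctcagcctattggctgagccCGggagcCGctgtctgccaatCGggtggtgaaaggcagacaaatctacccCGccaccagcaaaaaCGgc
PCDHGA4: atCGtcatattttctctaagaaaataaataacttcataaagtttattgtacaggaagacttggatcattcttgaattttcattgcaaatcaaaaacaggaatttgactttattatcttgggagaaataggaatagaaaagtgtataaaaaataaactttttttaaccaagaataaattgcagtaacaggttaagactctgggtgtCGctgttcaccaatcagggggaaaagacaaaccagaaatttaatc

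**Figure D5:**
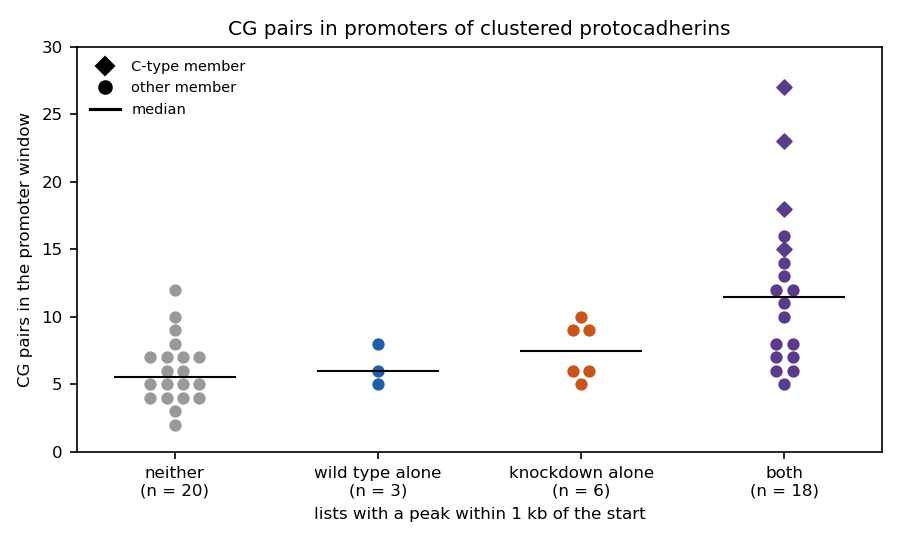
Number of CG pairs in the promoter window (vertical axis) of the 47 members with a window, by the lists that mark the start; diamonds are C-type genes, circles other members and lines medians. All 4 C-type genes stand among the members marked in both lists, at 15 to 27 pairs, and the members marked in neither reach 12.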

How the data were processed

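H2AK119ub peak lists of 1 wild-type and 1 YTHDF1 knockdown library were used. Per the submitters' processing notes, the tools were SICER 1.1, MACS2 2.1.0, Picard, Bowtie2 2.2.5, Trimmomatic 0.35 and SAMtools 1.3.1, with build hg38. The peak caller and its control are not stated there. The score is the authors' deposited value per peak, of unknown unit with a ceiling of 1000. Ranks and score cut-offs were taken separately for each list. Scores are also printed for single peaks of both lists. Whether they share a scale is unknown, so they do not compare the strength of the mark between the lists. Starts lay on a 200 bp grid and ends were read as inclusive. Peaks on chromosomes 1 to 22 and X were kept (32791 of 32798 and 34390 of 34393).

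Gene positions came from RefSeq (GRCh38.p14), which shares coordinates with hg38. Strand came from the RefSeq promoter table, so the background is 15818 protein-coding genes. The 6 members without an entry were read as lying on the plus strand, as the other 47 do. The tables give no exons. Promoter sequences are credited to RefSeq.

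Interval arithmetic used Python 3.11.15, pandas 2.3.3 and numpy 2.4.6, and was tested on simulated data. No test between groups was run, as each had 1 library. The members, lists, windows and alternatives were chosen with earlier results of these data known. Genes described singly were those marked in 1 list alone, those with the longest length and the largest gain and loss in each cluster, the C-type genes and PCDHB1, and members that share or adjoin their peaks. Alternatives changed the start window, the cluster interval, the overlap rule and the peaks kept.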

Additional observations from a re-analysis of the deposited data

How the results depend on the processing

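The 4 alternatives that bear on covered length (of 7 in all) kept the direction of its differences, which ranged from -16.2 to -11.6 kb in the alpha, from 0.4 to 8 kb in the beta and from -17.8 to -8 kb in the gamma cluster. Of 42 values, 33 stayed within 1.5 times the reported one and 9 did not. With the upper 50% of each list by score, the beta difference was 0.4 kb and the gamma difference -17.8 kb, 13 wild-type and 11 knockdown peaks touched the clusters, and 14 members were marked in the knockdown, 3 of them in the knockdown alone, against 17 and 6 in the wild type. Without peaks under 2 kb, 6 members had a wild-type peak only and 5 a knockdown peak only. The reported order, 4 with a wild-type peak only against 6 with a knockdown peak only, was thus turned round at both settings. In the upper 50%, 7765 of all 15818 protein-coding genes were marked in the wild type, 7758 in the knockdown and 6636 in both. No such background is given for the setting without peaks under 2 kb. The gamma difference was -12 kb with lists of equal length and -14.2 kb without peaks under 2 kb. No covered length over chromosome 5 or all chromosomes is given at the alternative settings. With at least 50% of both peaks in common, 11 knockdown peaks were shared. The settings by score, list length and width keep fewer peaks, and the cause of the moves was not tested further. Members marked numbered 17 to 26 in the wild type and 14 to 27 in the knockdown over all alternatives. The number marked in the knockdown was above that in the wild type with lists of equal length and with start windows of 0.5 and 2 kb, and below it in the upper 50% by score (14 against 17) and without peaks under 2 kb (20 against 21).

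No paired analysis was possible because each group had 1 library. The depth is unknown, so absence of a peak was not read as absence of the mark, and no difference was set against replicate error.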
